A study of Homo sapiens with 48 samples.

Results

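The adhesion genes examined here were ICAM1, ICAM4, ICAM5, ICAM3, ICAM2, VCAM1 and CD44, which are 7 of the 20033 protein-coding genes of the GENCODE annotation. They were chosen by name, and for each gene every peak overlapping the gene body or the 50 kb on either side was taken from all 16 deposited peak lists. ICAM1, ICAM4, ICAM5 and ICAM3 are neighbours on chromosome 19 and were handled as 1 locus, so the 7 genes fell into 4 loci. In hg38, ICAM1 (chr19:10271093-10286615), ICAM4 (chr19:10286955-10288522) and ICAM5 (chr19:10289952-10296778) are read from the plus strand and ICAM3 (chr19:10333776-10339661) from the minus strand. ICAM2 (chr17:64002594-64020634) is on the minus strand, and VCAM1 (chr1:100719742-100739045) and CD44 (chr11:35138882-35232402) are on the plus strand. The window of the ICAM1 locus is 169 kb long and holds 9 other protein-coding genes, that of ICAM2 is 118 kb with 3, that of VCAM1 is 119 kb with 0 and that of CD44 is 194 kb with 1, against a median window of 127 kb over all genes. RELA and RELB peaks that shared at least 1 bp were joined across their 10 lists into regions, and 10 of the 16096 regions of the genome lay at these 4 loci.

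The lists come from chromatin immunoprecipitation sequencing (ChIP-seq) in L3.6pl, an established human cell line of pancreatic ductal adenocarcinoma. RELA, RELB and the histone mark H3K27ac were each precipitated after vehicle (PBS), after 30 min or 6 h of TNFα, and after 30 min or 6 h of TWEAK, and FOSL1 was precipitated in vehicle cells only, which gave 16 conditions with 3 replicates each and 48 samples. Each condition has 1 peak list from merged replicates, so no value below carries a replicate error and no difference was tested; the sequencing depth is unknown, and a peak that is missing from a list fell under the threshold of the peak caller there. In the list of RELA after 30 min of TNFα every peak name carries the mark of replicate 1 beside the word merged, and it is not settled that all 3 replicates entered it. The study set the canonical response to TNFα beside the noncanonical response to TWEAK; on chromosomes 1 to 22, X and Y the RELA lists held from 2791 to 11266 peaks and the RELB lists from 2414 to 4101 peaks.

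ICAM and VCAM proteins are cell-surface receptors of the immunoglobulin superfamily that bind integrins on other cells, and CD44 is a surface receptor for hyaluronan, a sugar polymer of the extracellular matrix. RELA is the subunit through which canonical NF-κB signalling acts on genes, RELB is the corresponding subunit of the noncanonical pathway, and FOSL1 is a member of the AP-1 family of transcription factors. H3K27ac marks active promoters and enhancers, and ICAM1 and VCAM1 are textbook NF-κB targets in endothelium, a cell type that L3.6pl is not.

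RELA peaks closest to a start site were found at ICAM1, the receptor for the leukocyte integrins LFA-1 and Mac-1. After 30 min of TNFα there were 3 RELA regions within 1286 bp of the ICAM1 start site: one 1286 bp upstream with a fold enrichment of 6.50, one 178 bp upstream with 7.94, and one 709 bp downstream, in intron 1, with 6.65. All of these were absent from the vehicle list, the TNFα 6 h list, both TWEAK lists and all RELB lists. They were of ordinary strength for their list, in which 58.7%, 73.3% and 61.1% of the peaks had a lower fold enrichment. After 6 h of TNFα a different RELA region was listed, 5606 bp upstream of ICAM1, with a fold enrichment of 6.34. After 6 h of TWEAK the only region on this side of the locus was a RELB region 10988 bp upstream of ICAM1 and 8204 bp past the start of MRPL4, with a fold enrichment of 5.09. ICAM1 therefore had RELA at its start site after 30 min of TNFα, and the regions of the later TNFα list and of the RELB list lay elsewhere.

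The sequences under these ICAM1 regions are shown because they hold matches to the NF-κB consensus under RELA peaks near ICAM1. Each window is 81 bases of hg38 around the summit, on the plus strand, and capitals mark the exact match to the 10-base NF-κB consensus where there is one and otherwise the match with 1 mismatch nearest to the summit; the windows 1286 bp upstream and at the promoter hold no exact match.
ICAM1 5606 bp upstream, chr19:10265447-10265527: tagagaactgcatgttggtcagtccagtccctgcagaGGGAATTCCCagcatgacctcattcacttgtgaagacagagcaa
ICAM1 1286 bp upstream, chr19:10269767-10269847: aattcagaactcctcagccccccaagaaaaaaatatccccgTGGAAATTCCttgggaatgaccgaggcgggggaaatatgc
ICAM1 promoter, chr19:10270875-10270955: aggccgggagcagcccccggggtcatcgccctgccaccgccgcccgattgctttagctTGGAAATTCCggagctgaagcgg
ICAM1 intron 1, chr19:10271762-10271842: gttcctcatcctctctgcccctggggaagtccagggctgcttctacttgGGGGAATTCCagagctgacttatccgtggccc

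The upstream region and the promoter region held the same 10 letters, TGGAAATTCC, 6 bp and 22 bp from their summits. In the promoter these letters span chr19:10270933-10270942 and begin 160 bp upstream of the GENCODE start site, from which the region distances are measured. The RefSeq start site of ICAM1 lies further downstream, and the letters begin 187 bases before it. The intron 1 region held GGGGAATTCC 14 bp from its summit, and the region of the 6 h list held GGGAATTCCC 2 bp from its summit. A match of letters is a description and does not show which protein bound there. An exact match within 100 bp of the summit was found in 26.3% of all RELA and RELB regions, and a match with at most 1 mismatch in 51.7%. Outside tandem repeats, where the ICAM1 regions lie, the shares were 44.3% and 81.6%. Both searches covered both strands and 201 bases. Among RefSeq promoters of 300 bases, 50.2% held a match with at most 1 mismatch.

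**Figure D1:**
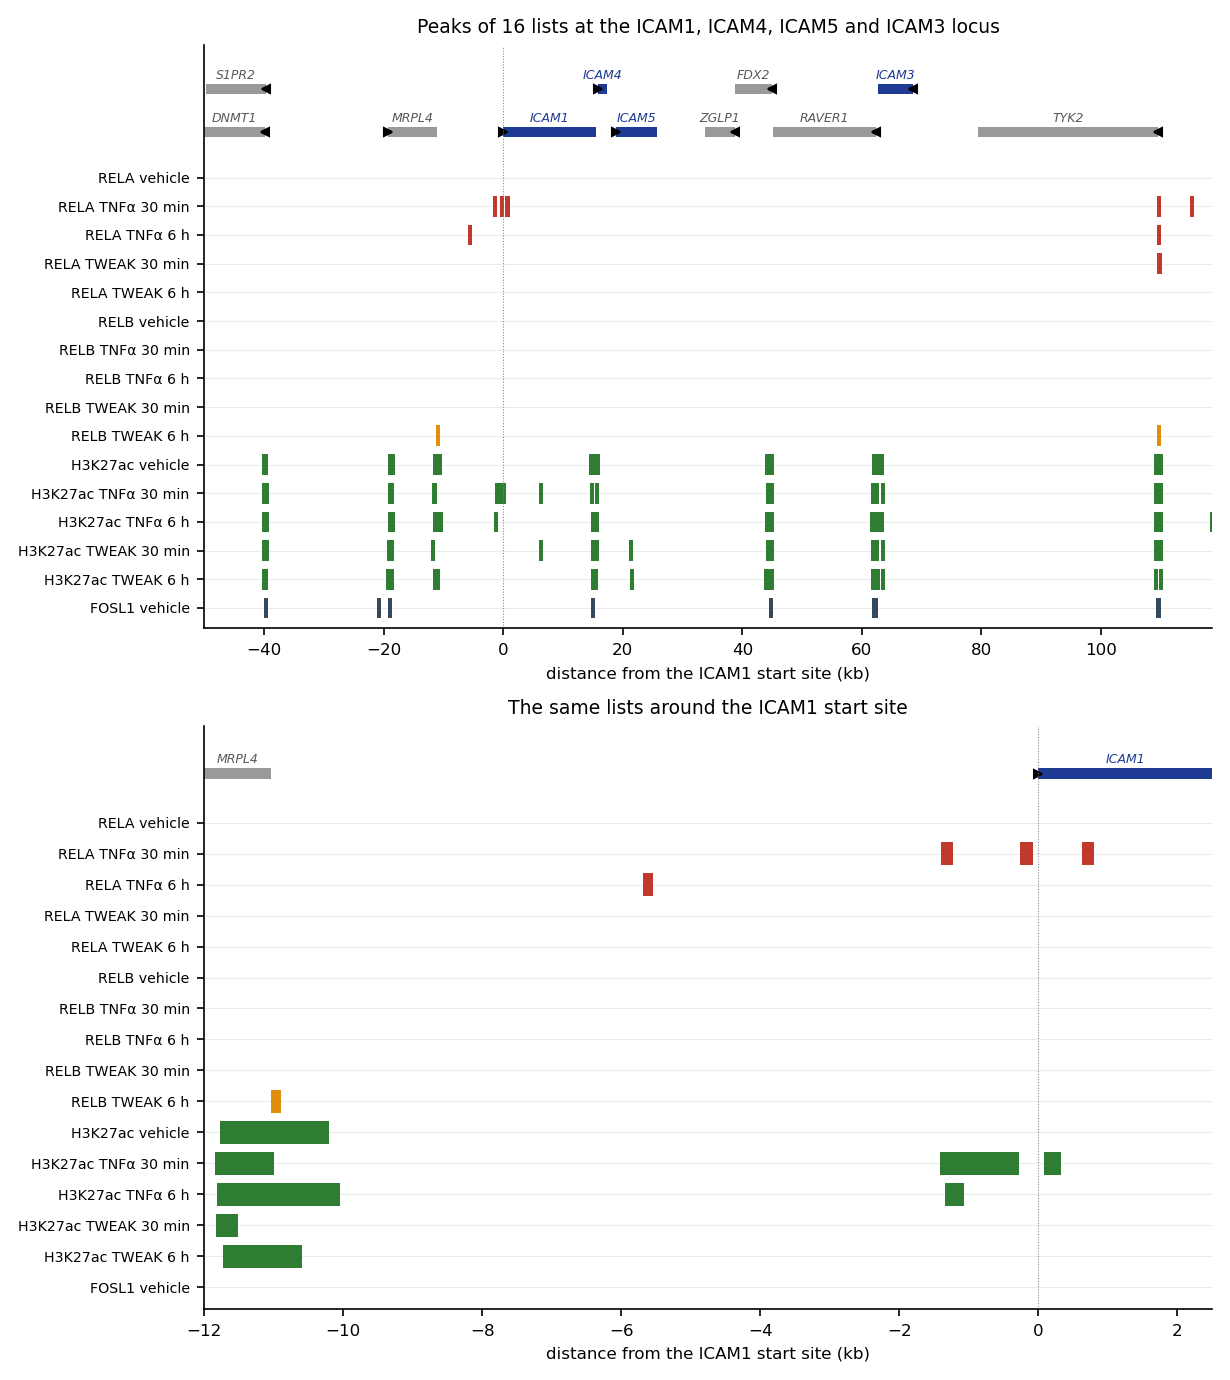
Peaks of the 16 lists (rows) against distance from the ICAM1 start site in kb, over the whole locus above and from 12 kb upstream below; each bar is 1 peak, narrow peaks are drawn wider so that they can be seen, gene bodies are at the top with an arrowhead at the start site, and members are in blue. In the lower panel the 3 RELA peaks after 30 min of TNFα flank the start site, and the H3K27ac peaks beside them are in the TNFα rows only.

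H3K27ac at the ICAM1 start site was listed after TNFα and in no other condition. No H3K27ac peak lay within 500 bp of the start site in vehicle cells, where the nearest was 10.2 kb away. After 30 min of TNFα there were 2 such peaks, of 1131 bp with a fold enrichment of 3.38 and of 236 bp with 2.43, and the promoter RELA region lay in the gap between them. After 6 h of TNFα the start site itself had none, and a peak of 278 bp with a fold enrichment of 2.87 was left at the region 1286 bp upstream. The nearest H3K27ac peak after TWEAK was 6.21 kb away at 30 min and 10.6 kb away at 6 h. Among all protein-coding genes, 6.56% had a RELA peak of the TNFα 30 min list within 500 bp of the start site, and 57.4% had an H3K27ac peak there in vehicle cells. An H3K27ac peak there after 30 min of TNFα with none in vehicle was rarer, at 0.948% of genes. Both features together were listed at 24 genes, 0.12% of all, and ICAM1 was the only member among them; this pair of features was counted after the ICAM1 values had been seen.

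ICAM4 and ICAM5, which lie directly behind ICAM1 and encode a red-cell and a neuronal ICAM, had no RELA or RELB region of their own. The nearest RELA peak after 30 min of TNFα was 15.1 kb from the ICAM4 start site and 18.1 kb from that of ICAM5, and in both cases it was the ICAM1 intron 1 region. The ICAM4 start site carried H3K27ac in all 5 lists, at fold enrichments of 3.12 in vehicle, 2.74 and 3.26 after 30 min and 6 h of TNFα, and 2.93 and 3.52 after 30 min and 6 h of TWEAK. Part of that acetylated stretch covers the last exon of ICAM1. A FOSL1 peak with a fold enrichment of 6.82, the strongest of the locus, lay 788 bp upstream of ICAM4 inside it. ICAM5 had no H3K27ac peak within 500 bp of its start site in any list. Peaks inside the gene were listed after TWEAK only, 2.52 kb from the start site at 30 min with a fold enrichment of 2.81 and 2.76 kb from it at 6 h with 3.02. Their −log10 q was low, at 2.14 and 2.01, and 38.1% and 40.2% of the peaks of their lists had a lower fold enrichment.

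ICAM3, a leukocyte ICAM read from the opposite strand, also lacked a region near its start site, but its window holds the strongest NF-κB region of the 4 loci. This region (chr19:10380622-10381034) lies 41.2 kb upstream of ICAM3 and 283 bp upstream of TYK2, a Janus family kinase of cytokine receptors, so ICAM3 is not the nearest gene. Apart from a tandem repeat at CD44, it was the only region of the 4 loci listed after both TNFα and TWEAK. RELA had a fold enrichment of 18.3 after 30 min of TNFα, 14.7 after 6 h of TNFα and 10.9 after 30 min of TWEAK, and RELB had 7.06 after 6 h of TWEAK. The RELA value after 30 min of TNFα exceeded 98.3% of its list. Neither vehicle list held a peak there, and neither did the RELA list after 6 h of TWEAK nor the RELB lists after 30 min of TWEAK and after TNFα. H3K27ac was present in all 5 lists at this region, with fold enrichments between 5.10 and 5.78, and a FOSL1 peak of 4.44 overlapped it with its summit 353 bp away. A weaker RELA region of the TNFα 30 min list, with a fold enrichment of 5.57, lay 5712 bp upstream of TYK2 and had no H3K27ac and no FOSL1 peak.
The summit of the TYK2 region is shown because it is the strongest region of the 4 loci and was listed for RELA and for RELB; it is given on the minus strand, the strand of ICAM3 and TYK2, with the exact consensus match in capitals.
TYK2 promoter side, chr19:10380851-10380931: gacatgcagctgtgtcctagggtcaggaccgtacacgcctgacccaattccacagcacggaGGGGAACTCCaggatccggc

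ICAM2, a ligand of LFA-1 known mainly from endothelium and platelets, had 1 region in its window. RELA was listed after 30 min of TNFα 8434 bp upstream of its start site, with a fold enrichment of 5.07, the lowest of the 10 regions, and 32.1% of the peaks of that list were lower. No other list held a RELA or RELB peak there, and no H3K27ac or FOSL1 peak lay at it. It is printed to show that this weak region still holds an exact match, in capitals, on the minus strand of hg38.
ICAM2 upstream, chr17:64029028-64029108: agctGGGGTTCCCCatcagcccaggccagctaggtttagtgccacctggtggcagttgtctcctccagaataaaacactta
The ICAM2 start site had no H3K27ac peak within 500 bp in any list. H3K27ac in intron 1, about 5.7 kb past the start site, was listed after TNFα at 30 min with 2.99 and at 6 h with 3.44, and after 30 min of TWEAK with 3.62, but in neither the vehicle nor the TWEAK 6 h list. In intron 12 of the neighbouring ERN1, about 36.1 kb upstream of ICAM2, H3K27ac was listed in all 4 treated conditions, at fold enrichments from 2.74 to 3.24, and not in vehicle.

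VCAM1, the ligand of the integrin VLA-4, had no RELA or RELB region within its window in any of the 10 lists. The nearest RELA peak after 30 min of TNFα was 97.4 kb from its start site. Its promoter nevertheless holds an exact consensus match, which 5.91% of the 35116 RefSeq promoters of 300 bases do. The 120 bases before the RefSeq start site are shown for comparison with the ICAM1 promoter, on the plus strand of hg38 and with the exact match in capitals; that match begins 62 bases before the start site, and a match with 1 mismatch, GGGTTTCCCC, begins 77 bases before it.
VCAM1 promoter, chr1:100719622-100719741: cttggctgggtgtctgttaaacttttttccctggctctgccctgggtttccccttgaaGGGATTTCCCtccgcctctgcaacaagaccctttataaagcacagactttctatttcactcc
The VCAM1 start site had no H3K27ac peak within 500 bp in any list. The nearest was upstream, 4.46 kb away in vehicle cells and 5.03 kb away after 30 min of TNFα. That upstream stretch was acetylated in all 5 lists, with a fold enrichment of 3.28 in vehicle, 3.12 and 3.21 after 30 min and 6 h of TNFα, and 3.39 and 3.92 after 30 min and 6 h of TWEAK. It held the strongest FOSL1 peak of the locus, 5.83 kb upstream of VCAM1 with a fold enrichment of 9.75. After 6 h of TWEAK a further H3K27ac peak with a fold enrichment of 2.69 was listed in intron 2; its −log10 q of 1.42 was low.

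**Figure D2:**
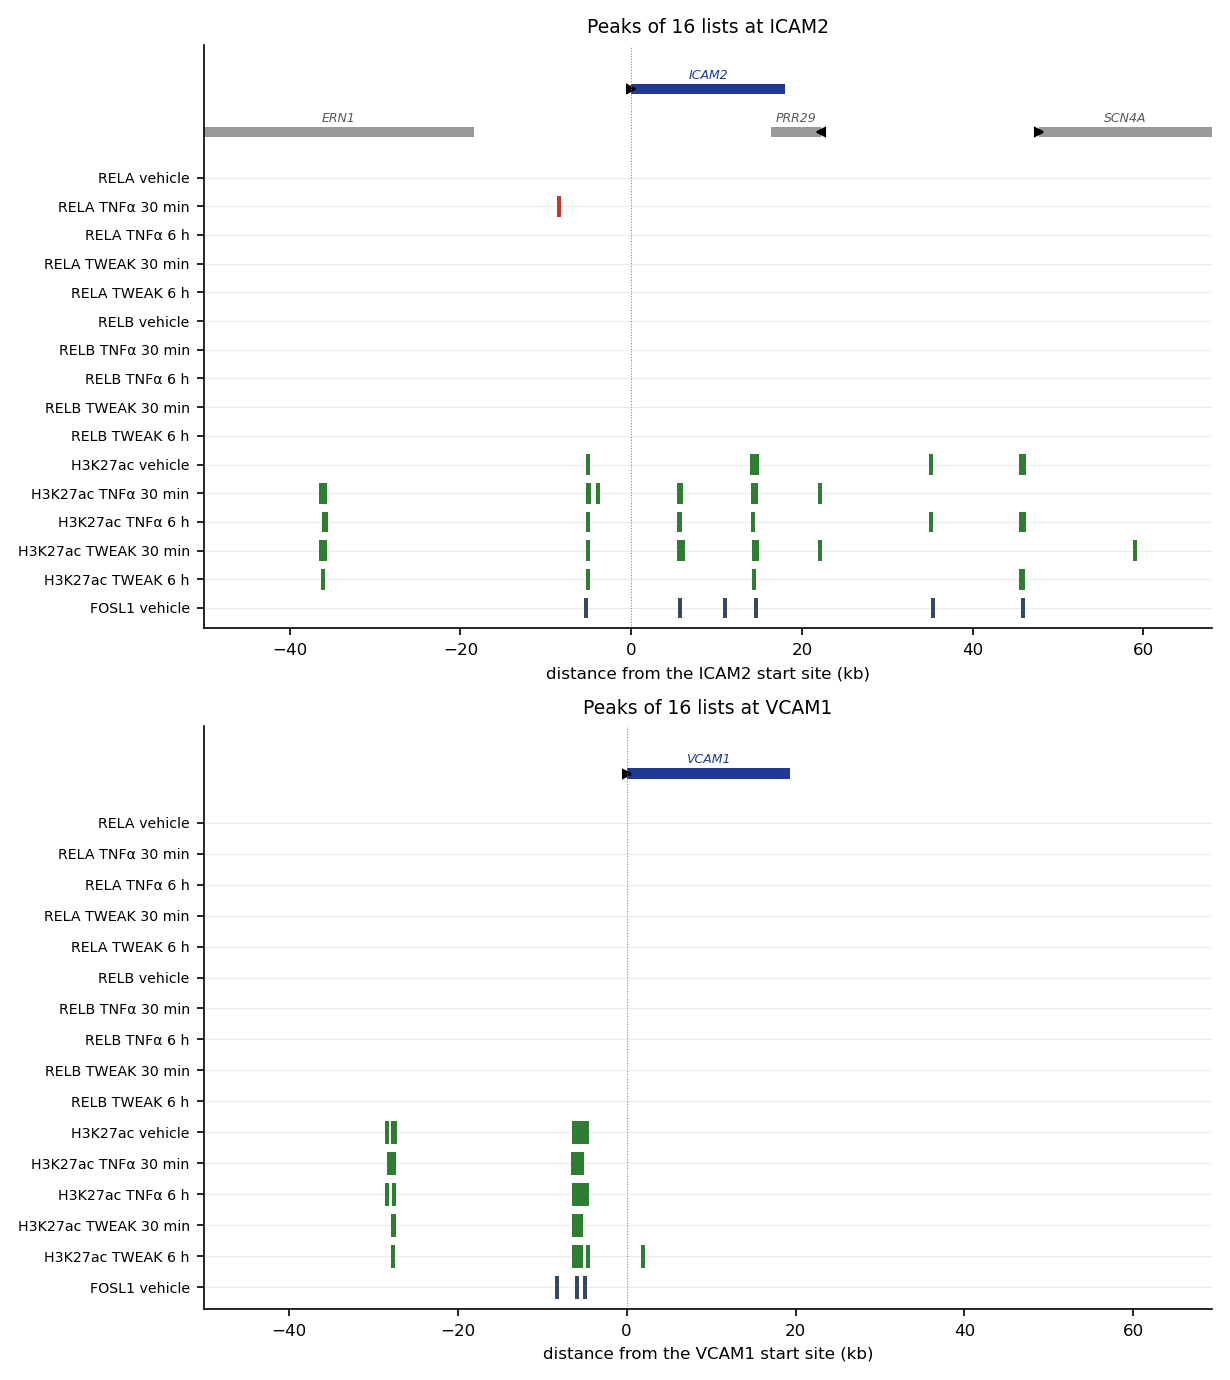
Peaks of the 16 lists (rows) against distance from the start site in kb for ICAM2 (above, upstream to the left) and VCAM1 (below); each bar is 1 peak and narrow peaks are drawn wider so that they can be seen. The ICAM2 panel shows the lone RELA peak after 30 min of TNFα, and the 10 RELA and RELB rows of the VCAM1 panel are empty.

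CD44 had 2 regions with opposite features. The first lay in intron 1, 20.3 kb past the start site, and was a RELA region of the TNFα 30 min list alone, with a fold enrichment of 9.28, above 81.4% of that list. H3K27ac was present there in every list, at 3.63 in vehicle, 3.47 and 3.38 after 30 min and 6 h of TNFα, and 3.24 and 3.39 after 30 min and 6 h of TWEAK. The acetylated stretch was 1254 bp long in vehicle, 1874 bp and 1949 bp after 30 min and 6 h of TNFα, and 1302 bp and 1237 bp after 30 min and 6 h of TWEAK, so the TNFα lists had the longest peaks. A FOSL1 peak with a fold enrichment of 5.15 overlapped the region with its summit 259 bp away. Its sequence is given on the plus strand of hg38. The exact match, GGGAAACTCC, reads on the minus strand, and the capitals are its reverse complement.
CD44 intron 1, chr11:35159102-35159182: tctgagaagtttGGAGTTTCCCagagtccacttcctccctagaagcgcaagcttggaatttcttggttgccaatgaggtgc
The second CD44 region (chr11:35248670-35248841) lies past the end of the gene, 109.9 kb from its start site and between CD44 and SLC1A2. It was listed in 7 of the 10 RELA and RELB lists, both vehicle lists included. RELA had a fold enrichment of 8.45 in vehicle, 8.85 after 30 min and 7.90 after 6 h of TNFα, and 7.52 after 6 h of TWEAK. RELB had 9.62 in vehicle, and 7.32 and 8.29 after 30 min and 6 h of TNFα. The vehicle values thus lay among or above the treated ones. The sequence around it is a tandem repeat, with a self-match of 0.475 against a limit of 0.4, and it held no consensus match, no H3K27ac peak and no FOSL1 peak. Such repeats made up 41.9% of all RELA and RELB regions of the genome. The part of the repeat in these peaks was not tested.

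**Figure D3:**
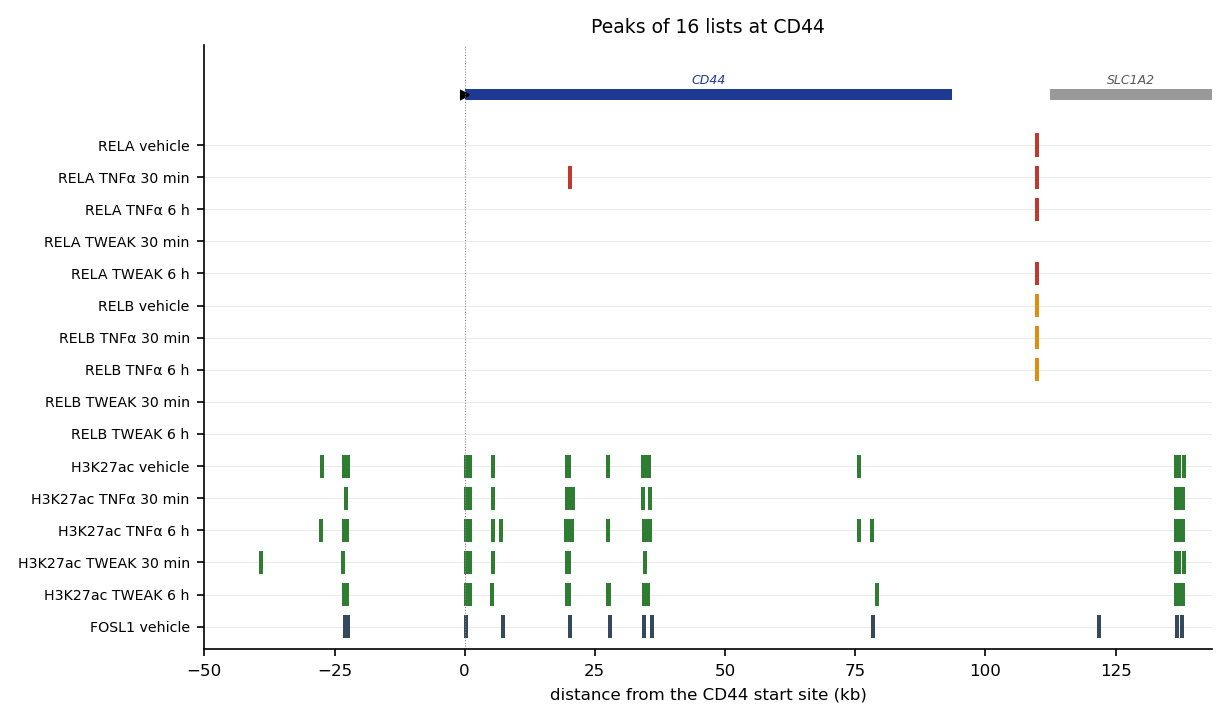
Peaks of the 16 lists (rows) against distance from the CD44 start site in kb; each bar is 1 peak and narrow peaks are drawn wider so that they can be seen. The intron 1 region appears in the row of RELA after 30 min of TNFα above acetylated rows, and the region 109.9 kb from the start site fills vehicle and treated rows of both factors.

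**Figure D4:**
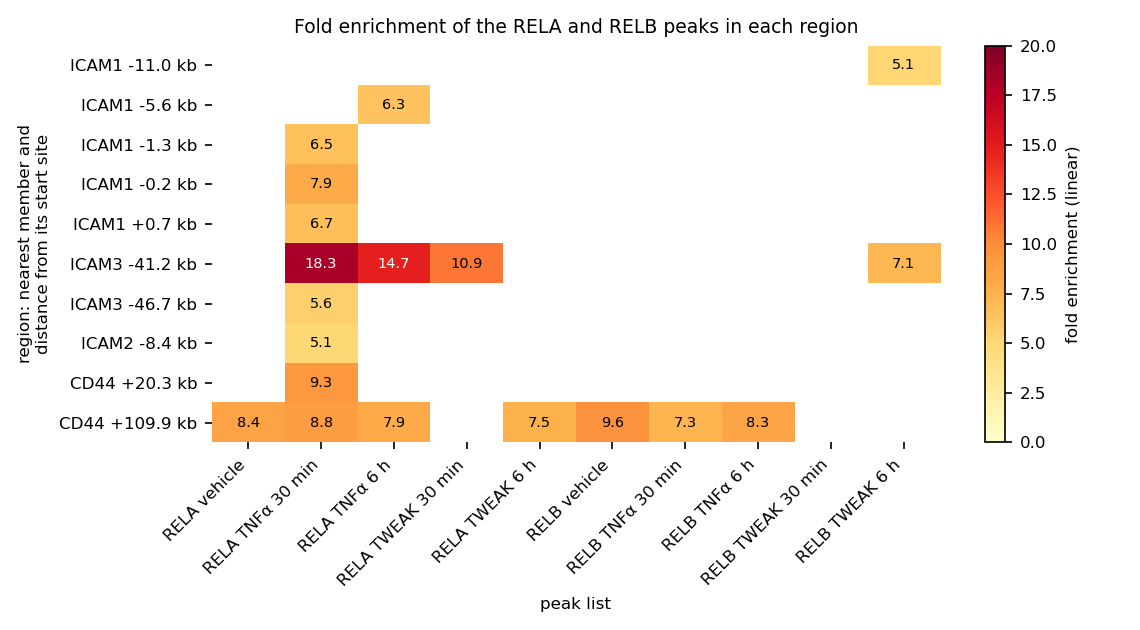
Fold enrichment (linear colour scale, value in each cell) of the RELA and RELB peaks in the 10 regions (rows, named by the nearest member and the signed distance from its start site in kb) in each list (columns); blank cells mark lists without a peak. The column of RELA after 30 min of TNFα is the fullest, with 8 regions, and the last row holds the only vehicle peaks.

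Counted over the members, RELA after TNFα was the most frequent of the RELA and RELB features, as it was over all genes. A RELA peak of the TNFα 30 min list that overlapped no vehicle RELA peak lay in the windows of 6 of the 7 members, all but VCAM1 and at 3 of the 4 loci, against 46.9% of all protein-coding genes. After 6 h of TNFα 4 members had one, namely ICAM1, ICAM4, ICAM5 and ICAM3, against 24.4% of genes. For TWEAK the count was 1 member at 30 min, ICAM3, against 4.22% of genes, and 0 at 6 h, against 2.17%. RELB peaks absent from the vehicle RELB list were found after 6 h of TWEAK in 4 members, again ICAM1, ICAM4, ICAM5 and ICAM3, against 11.8% of genes. After 30 min of TWEAK no member had one (0.409% of genes), nor after 30 min of TNFα (0.454%) or 6 h of TNFα (2.15%). Vehicle peaks were listed for CD44 alone, in the repeat, for RELA (5.05% of genes) and for RELB (3.06%). Since ICAM1, ICAM4 and ICAM5 share the same regions, these counts rest on fewer independent loci than genes. ICAM1 had 5 regions in its own window, and 2.49% of genes had at least as many, with a median of 1 over all genes; ICAM3 and CD44 had 2, ICAM2 had 1 and VCAM1 had 0.

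The features of the 10 regions are given beside those of all RELA and RELB regions, with no test, since 10 regions are few. An exact consensus match was present in 7 of the 10, against 26.3% of all regions, and in 7 of the 9 outside tandem repeats, against 44.3% of such regions. A match with at most 1 mismatch was in 9 of the 10, all but the CD44 repeat, against 51.7% of all regions and 81.6% of those outside tandem repeats. The AP-1 motif TGACTCA was in none of the 10, against 9.52% of all regions, 16.2% of those outside tandem repeats and 4.95% of RefSeq promoters. A FOSL1 peak overlapped 2 of the 10, the TYK2 region and the CD44 intron 1 region, against 54.7% of all regions and 48.5% outside repeats. H3K27ac lay within 500 bp of the summit of 3 regions in vehicle cells and of 6 after 30 min of TNFα. The added regions were those at ICAM1. Over all regions the shares were 48.9% and 58.7%, and over those outside tandem repeats 61.9% and 71.5%.

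FOSL1, mapped in vehicle cells, was present at all 4 loci with 29 peaks, as at 90.5% of protein-coding genes. CD44 had 12 of them, ICAM1 and its neighbours 8, ICAM2 6 and VCAM1 3. CD44 was the only member with a FOSL1 peak within 500 bp of its start site, at a fold enrichment of 5.53, where 37% of all genes had one. The start site of ICAM1 was 14.9 kb from the nearest FOSL1 peak. The strongest peak of each locus had a fold enrichment of 18.0 at ICAM2, 35.4 kb past the start site and beyond the end of the gene, 9.75 at VCAM1, 8.83 in intron 1 of CD44 and 6.82 at the ICAM1 locus. The ICAM2 peak exceeded 99.2% of the list, and a further ICAM2 peak, 45.9 kb past the start site, had 12.6, more than any peak of the other loci. The motif TGACTCA lay within 100 bp of the summit of 13 of the 29 peaks and of 38.2% of all FOSL1 peaks, but by locus it was in 7 of 12 at CD44, 3 of 6 at ICAM2, 2 of 3 at VCAM1 and 1 of 8 at the ICAM1 locus. Of the 29 peaks, 20 (69.0%) overlapped H3K27ac of vehicle cells and 2 (6.90%) overlapped a RELA or RELB region, where 60.3% and 14.9% of all FOSL1 peaks did.
The summit sequences of the strongest FOSL1 peaks at ICAM2 and CD44 are shown with the AP-1 motif, TGACTCA or its reverse complement TGAGTCA, in capitals. The ICAM2 window is named for the locus, although SCN4A has the nearest start site, and is on the minus strand. The CD44 window is on the plus strand of hg38.
ICAM2 FOSL1 peak, chr17:63985233-63985313: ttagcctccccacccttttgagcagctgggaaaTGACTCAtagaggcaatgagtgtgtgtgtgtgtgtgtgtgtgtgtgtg
CD44 FOSL1 peak, chr11:35146202-35146282: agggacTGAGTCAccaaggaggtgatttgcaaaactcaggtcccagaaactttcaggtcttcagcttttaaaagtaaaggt

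H3K27ac over the whole windows differed more between lists at CD44 than at the ICAM1 locus. The length under H3K27ac peaks at the ICAM1 locus was 10.6 kb in vehicle, 10.1 kb and 11.2 kb after 30 min and 6 h of TNFα, and 9.47 kb and 9.54 kb after 30 min and 6 h of TWEAK. At CD44 it was 9.55 kb in vehicle, 6.76 kb and 10.7 kb after 30 min and 6 h of TNFα, and 6.34 kb and 8.09 kb after 30 min and 6 h of TWEAK, so both 30 min lists were the shortest. The length over the genome was also below vehicle in these lists, at 0.813 times after 30 min of TNFα, 0.845 times after 30 min of TWEAK and 0.837 times after 6 h of TWEAK. Divided by that ratio, CD44 was at 0.870, 0.786 and 1.01 times vehicle. ICAM2 had 2.59 kb in vehicle, 3.66 kb and 2.98 kb after TNFα, and 3.43 kb and 1.80 kb after TWEAK, in the same order of times, and VCAM1 had 3.00 kb, 2.61 kb, 2.82 kb, 1.91 kb and 2.49 kb. Over the 4 loci the TNFα 30 min list covered 0.897 times the vehicle length, while over the genome it covered 0.813 times, so that relative to the genome the loci were at 1.10 times. By locus this value was 1.17 at the ICAM1 locus, 1.74 at ICAM2, 1.07 at VCAM1 and 0.870 at CD44. After 30 min of TWEAK it was 1.06 at the ICAM1 locus, 1.56 at ICAM2, 0.756 at VCAM1 and 0.786 at CD44. The strongest vehicle peak of each window was 6.09 at the ICAM1 locus, in MRPL4, 3.22 at ICAM2, 3.63 at VCAM1 and 3.80 at CD44, in SLC1A2.

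**Figure D5:**
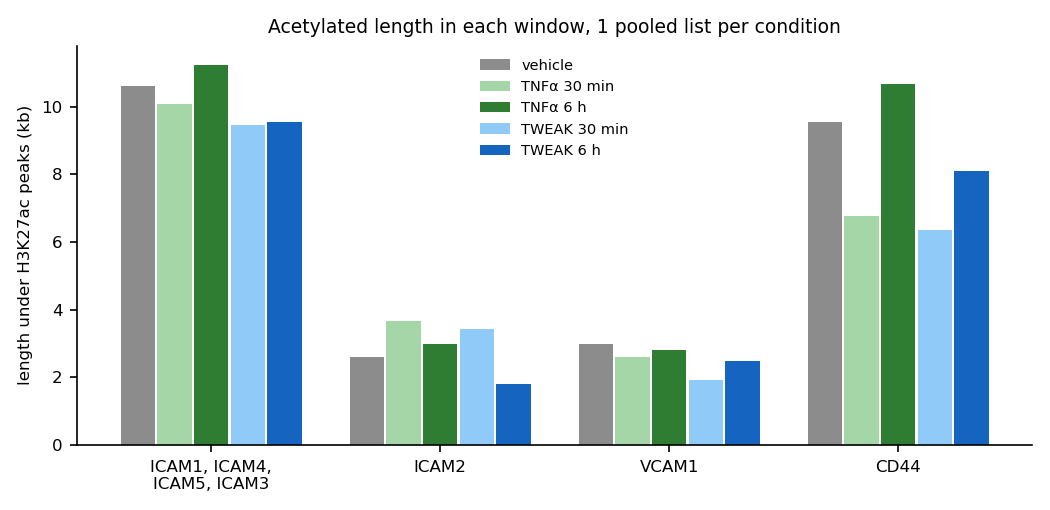
Length under H3K27ac peaks in kb (bars, from 0) in the windows of the 4 loci for vehicle, TNFα and TWEAK, with 1 pooled list per bar and no error. The CD44 bars of both 30 min lists are the lowest of that locus, and ICAM2 is longest after 30 min of TNFα.

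New H3K27ac peaks, overlapping none of vehicle, were frequent around genes in general. They lay in the windows of 4 members after 30 min of TNFα (42.6% of genes) and 6 after 6 h of TNFα (42.4%). For TWEAK the count was 6 at 30 min (43.1%) and all 7 at 6 h (34.5%). Because neighbouring members share peaks, these counts came from 2, 3, 3 and 4 of the 4 loci, in the same order. The TWEAK 6 h count rested on 4 peaks, and 1 inside ICAM5 counted for ICAM1, ICAM4, ICAM5 and ICAM3. Their −log10 q was low, at 2.01 for that peak, 1.79 at ICAM2, 1.42 at VCAM1 and 1.51 at CD44. At ICAM1, a peak in intron 2, about 6.3 kb past the start site, was listed after 30 min of both stimuli, with fold enrichments of 3.12 for TNFα and 3.07 for TWEAK, and in no 6 h list. CD44 gained such peaks in the TNFα 6 h list and in both TWEAK lists, and its start site was acetylated in all conditions, at 3.32 in vehicle and from 2.95 to 3.45 in the treated lists.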

How the data were processed

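ChIP-seq was analysed from the 16 peak lists that the authors deposited, 1 per condition from merged replicates. Per the labels and methods, reads were aligned to hg38 with Bowtie2 2.5.0, and SAMtools 1.18, deepTools 3.3.2 and MACS2 (version not given in the sources used here) were used; peaks were called against input, broad for H3K27ac (5 lists) and narrow for the others (11 lists). The deposited values are fold enrichment, a linear ratio over input, and the deposited −log10 q of each peak; p-value columns were not used. Only the autosomes and sex chromosomes entered the counts. Genes came from GENCODE 44 and promoters from RefSeq (GRCh38.p14), and all 35116 promoters matched the hg38 reference letter for letter; ICAM2 has no promoter in that table. A region's summit is that of its peak with the highest fold enrichment, and H3K27ac peaks, which have no summit, are placed by their middle. Motifs were searched within 100 bp of the summit on both strands. A tandem repeat is a 1000 bp window whose sequence matches itself at a shift of 1 to 400 bp in at least 0.4 of its bases. The text names all 7 genes and all regions of a locus with at most 12 of them, plus the strongest FOSL1 and vehicle H3K27ac peak per locus. Members, lists and rules were chosen with earlier results of these data known, and the alternatives on tandem repeats and on H3K27ac overlap, and the counts near start sites, were added after seeing the data. The overlap and motif code was tested on simulated data. Without replicate values or depth no test was run; 36 alternatives were planned. Python 3.11.15, numpy 2.4.6, pandas 2.3.3, scipy 1.17.1 and matplotlib 3.10.9 were used. Sequences are printed for some regions and peaks only, and 1 FOSL1 window is not reported here.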

Additional observations from a re-analysis of the deposited data

How the results depend on the processing

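Of 45 values recomputed under an alternative, 35 stayed within the set limits, 9 moved and 1 reversed. The limits were 1.5 times for counts and 1.1 times for acetylated length, so a value within them can still differ from the main one. Shares of 10% and 40% on a FOSL1 peak, against 20%, also counted as within the limits. The counts depended on the window. With 10 kb in place of 50 kb on either side, RELA regions after 30 min of TNFα fell from 8 to 5, RELA vehicle, RELB vehicle and RELB TWEAK 6 h regions fell to 0, and the regions in all fell from 10 to 6; with 100 kb the RELA regions after 30 min of TNFα numbered 13. Outside tandem repeats the RELA vehicle and RELB vehicle regions were 0. With FOSL1 counted only where its summit lay within 100 bp, the share of regions on a FOSL1 peak went from 20% to 0%; with windows of 100 kb it was 40%. Dividing the acetylated length after 30 min of TNFα by its ratio over the genome turned 0.897 into 1.10, above vehicle in place of below. Stricter thresholds, at −log10 q of 3 or fold enrichment of 5, left the counts of RELA and RELB regions as they were, and at a fold enrichment of 5 the share on a FOSL1 peak was 10%. When H3K27ac had to overlap the region itself, 4 regions in place of 6 had it after 30 min of TNFα. No paired analysis was possible because each condition has 1 pooled list.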

Other observations

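Among 39 other adhesion genes, 24 had a RELA or RELB peak in their window and 15 had none, where 50.7% of all protein-coding genes had one. New RELA peaks after 30 min of TNFα lay at 20 of the 39, against 46.9% of all genes, and new RELB peaks after 6 h of TWEAK at 10, against 11.8%. HAS1, which makes hyaluronan, the ligand of CD44, had a RELA peak 2.16 kb upstream of its start site with a fold enrichment of 18.9 after 30 min of TNFα, 12.1 after 6 h of TNFα, 6.17 and 5.56 after 30 min and 6 h of TWEAK, and a RELB peak of 7.07 after 6 h of TWEAK. JAM2, a junctional adhesion molecule, was the only one of the 39 with a RELA peak of the TNFα 30 min list within 500 bp of its start site, at a fold enrichment of 5.39. ITGAM, the α chain of the ICAM1 receptor Mac-1, had peaks 5.56 kb past its start site in 8 of the 10 lists, vehicle included, with a RELA fold enrichment of 10.3 in vehicle and 18.7 after 30 min of TNFα and a RELB fold enrichment of 12.1 in vehicle and 23.2 after 6 h of TWEAK. These genes were named after their values had been seen.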
